A study of Homo sapiens with 8 samples.

Results

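Amino acid transporters are membrane proteins of the solute carrier (SLC) families that move amino acids into cells, out of them, or between the cytosol and organelles. The genes described here were 42 members of the SLC1, SLC3, SLC6, SLC7, SLC16, SLC36, SLC38 and SLC43 families and of the mitochondrial SLC25 carriers, chosen by gene symbol from the array's annotation. Of these, 41 had a value here, among 17492 genes in all, and SLC25A15 was not analysed here. Each gene had 1 row in the expression table.

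The arrays came from 8 subcutaneous tumours in BALB/c nude mice, a strain without mature T cells. The tumours grew from SkMel147 cells, a human melanoma line long in culture. The tumour cells carry Omomyc under control of doxycycline, and mice received doxycycline (4 tumours) or its vehicle (4 tumours) in the drinking water for 7 days, starting at a tumour size of 100 mm3. Omomyc is an engineered piece of MYC that competes with MYC for its partners and its DNA sites. No group received doxycycline without the transgene, so an effect of the drug itself and one of Omomyc cannot be told apart. The labels give neither the age of the mice nor whether the line is 1 clone, and they call the tumours biological replicates. The question was what Omomyc changes in growing melanomas, here for the genes that supply amino acids.

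Values are log2 intensities after RMA, a method that removes background and gives all arrays nearly the same distribution. The 8 arrays had medians of 5.02 to 5.13 and correlated at 0.961 to 0.982 within a group and 0.933 to 0.955 between groups, across genes. The number of arrays limits the precision. Vehicle replicate 2 and doxycycline replicates 1 and 4 had the lowest array weights (0.502, 0.728 and 0.786), a measure of how closely an array follows its group, so the results are also given without them where that matters. MYC, whose probes may also read the transgene, was at 5.26 to 5.92 in the vehicle tumours. In doxycycline replicate 1 it was at 5.49, inside that range, and in the other doxycycline tumours it was at 6.78 to 7.74.

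Markers of the labelled cell type were partly present. The pigment genes MLANA, TYR and TYRP1 averaged below 3 on the log2 scale in both groups, and SOX10 was at 6.53 (vehicle) and 6.25 (doxycycline). PMEL averaged 3.26 and 3.19, MITF 5.22 and 5.07, and S100B 4.06 and 4.80 (vehicle and doxycycline). Of these 7 lineage genes, 0 passed limma's test. Of 6 neural crest and mesenchymal melanoma markers, 2 rose with doxycycline, S100A4 (2.30 ± 0.28, SE) and NGFR (2.06 ± 0.53, SE; limma adjusted p of 0.000486 and 0.0310), and AXL, SOX9, TEAD1 and VIM did not pass. The mean of these 6 markers ran from 7.72 to 8.22 in vehicle and from 8.58 to 9.23 in doxycycline tumours, without overlap. Taken singly, 4 of the 6 genes overlapped between the groups. S100A4 and NGFR had the largest differences, against 0.63 (AXL), 0.51 (SOX9), 0.31 (TEAD1) and -0.12 (VIM). Over all genes, 4.75% rose and 8.86% had every doxycycline tumour above every vehicle tumour. Of the markers of other cell types, 1 of 4 fibroblast genes (COL1A1, 1.25 ± 0.28, SE) and 1 of 7 macrophage and neutrophil genes (LYZ, 1.11 ± 0.22, SE) rose with doxycycline (limma adjusted p of 0.0150 and 0.0102). The mean of the fibroblast list ran from 5.22 to 6.41 in vehicle and from 6.56 to 8.21 in doxycycline tumours, and that of the macrophage and neutrophil list from 3.77 to 4.07 and from 4.19 to 4.97. S100A8, S100A9 and the T cell gene CD2 averaged below 3 in both groups, but some other genes of their lists did not. CD68 averaged 8.15 and 8.98, ITGAM 4.65 and 5.17, and NKG7 5.34 and 4.98 (vehicle and doxycycline). At 1.82 ± 0.52 (SE) the difference of CD14 missed the threshold (limma adjusted p = 0.0507). The array is made for human RNA and the host is a mouse, and the part of these markers in the results below was not tested. In tumour tissue, fewer cells of a type and less RNA per cell cannot be told apart.

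As background, cells take up large neutral amino acids such as leucine through heterodimers of a light chain (such as SLC7A5) and a glycoprotein heavy chain (SLC3A2), in exchange for glutamine that other carriers (SLC1A5, SLC38A1, SLC38A2) bring in. Amino acids in the cytosol and the lysosome are sensed by proteins upstream of the Rag GTPases, which recruit the growth kinase mTORC1. Shortage is sensed by the kinase GCN2, which acts through the transcription factor ATF4. MYC is known to bind the DNA sequence CACGTG, the E-box, and SLC7A5 and SLC1A5 are well-known MYC-responsive genes in other tumours.

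Because Omomyc competes for E-boxes, the promoters of the transporter genes were read for this motif and for those of the stress factors that govern several of them. RefSeq promoter windows on GRCh38.p14, of 250 bases before and 50 after the annotated start, were held for 32 of the 41 genes, and for 5 of the 8 that are called different below. CACGTG occurred in 5 of the 32 windows (15.6%) and in 8.69% of the windows of all 14129 measured genes that had one. The printed stretches show the E-box, in capitals, of the only called gene that held one, SLC7A5, and of the 3 uncalled genes that held one before their start. All lie on the minus strand and are written 5′ to 3′ in the gene's direction.

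SLC7A5, chr16:87869605-87869664: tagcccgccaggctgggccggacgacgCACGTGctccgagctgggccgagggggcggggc
SLC25A13, chr7:96322220-96322279: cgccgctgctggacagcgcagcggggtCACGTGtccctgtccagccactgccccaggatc
SLC43A1, chr11:57515782-57515841: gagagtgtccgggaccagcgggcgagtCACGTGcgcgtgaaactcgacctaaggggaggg
SLC38A5, chrX:48470434-48470493: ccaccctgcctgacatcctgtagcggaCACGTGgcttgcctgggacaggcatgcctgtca

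Of these 4 genes SLC7A5 fell, while SLC25A13, SLC43A1 and SLC38A5 did not pass the test. The other E-box lay just after the start of SLC38A7, which did not pass either. Searched on both strands, TGATGNAA, a form of the C/EBP-ATF element read by ATF4, was found in 4 of 32 windows (12.5%, against 2.52% of all measured genes with a window), those of SLC1A3, SLC3A2, SLC38A1 and SLC7A1. TGACNNNGC, the core of the antioxidant element, was found in 6 of 32 (18.8%, against 14.6%), and its match in SLC25A13 overlaps the E-box there. The C/EBP-ATF matches of the called genes SLC38A1 and SLC7A1 lie at and just after their starts, on the minus strand of chromosomes 12 and 13, with the same 8 letters.

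SLC38A1, chr12:46266502-46266531: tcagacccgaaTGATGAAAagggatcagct
SLC7A1, chr13:29595663-29595692: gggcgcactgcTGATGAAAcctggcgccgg

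A match describes the letters in these windows only, and whether any factor is bound there was not measured.

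In doxycycline tumours 7 of the 41 transporter genes fell, 1 rose, and 33 did not pass limma's test (adjusted p under 0.05 among all genes tested). Together the 8 called genes are set against 10.8% of all genes called. The genes that fell were SLC7A5, SLC6A15, SLC43A3, SLC6A6, SLC7A1, SLC38A1 and SLC1A5, by 5.25-fold for SLC7A5 and by 1.57-fold to 2.65-fold for the rest. The glycine carrier gene SLC6A9 rose 2.53-fold. The 7 falls are 17.1% of the 41 genes, where 6.03% of all genes fell, and the 1 rise is 2.44%, where 4.75% of all genes rose. Without regard to the test, all 4 doxycycline tumours lay below all 4 vehicle tumours for 10 of the 41 genes (24.4%, against 8.83% of all genes) and above them for 1 (2.44%, against 8.86%), and the 11 genes together compare with 17.7% of all genes. The median log2 difference of the 41 genes was -0.05, against 0.04 for all genes, and 22 of the 41 differences were below 0 and 19 above.

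**Figure D1:**
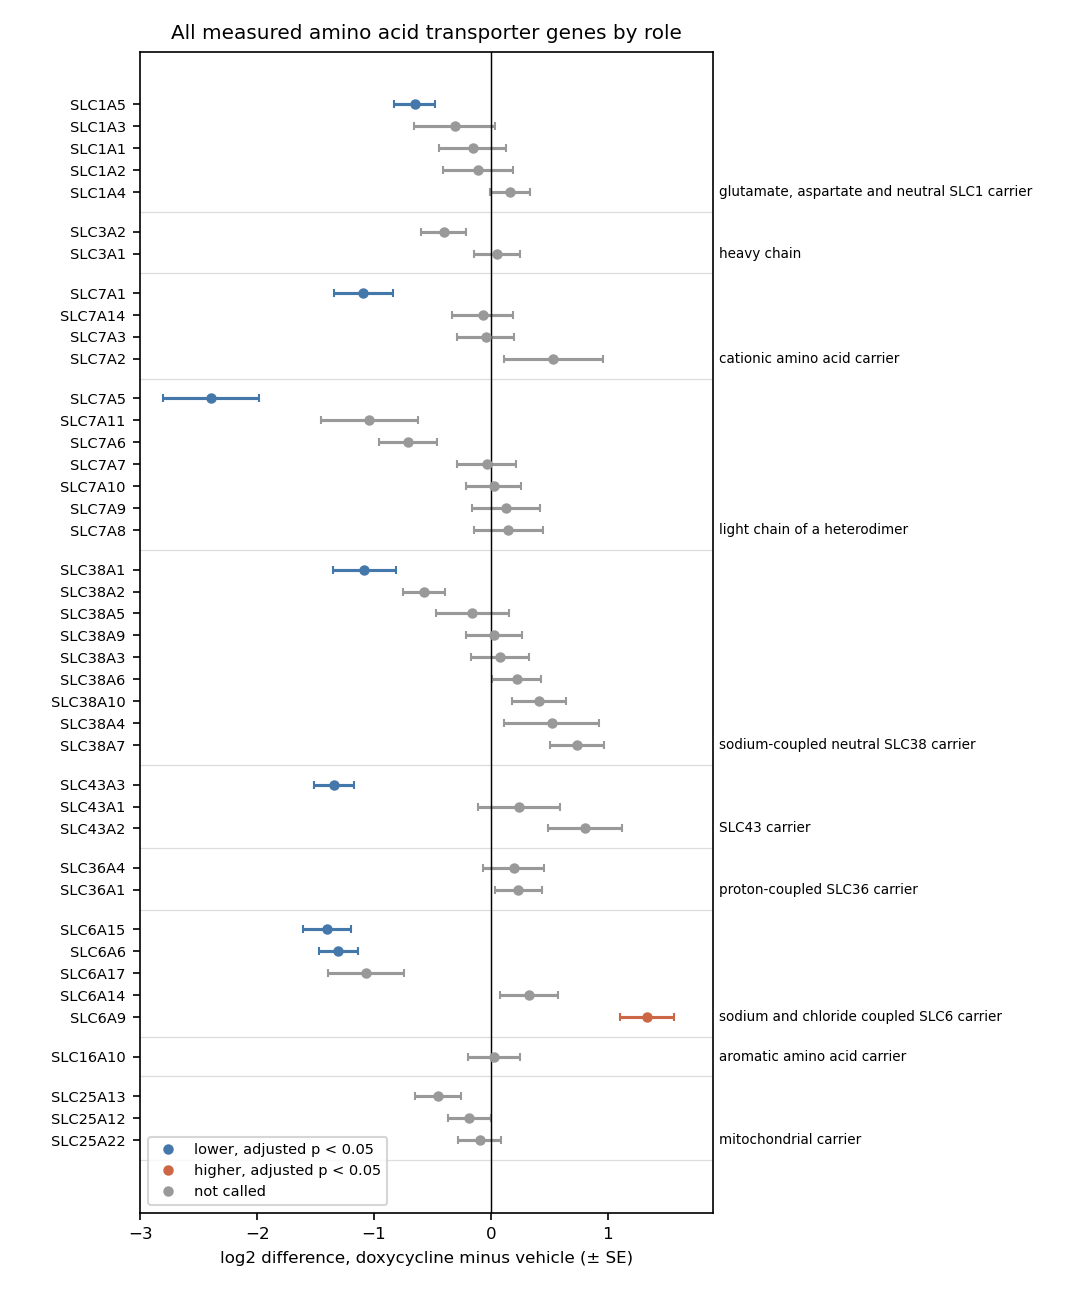
Log2 difference, doxycycline minus vehicle, for each of the 41 genes, grouped by role, with limma's standard error as bars. SLC7A5, at -2.39, lies farthest to the left, SLC6A9, at 1.34, farthest to the right, and 33 genes in grey did not pass the test.

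The light chains of the heterodimeric exchangers were led by SLC7A5, known as LAT1, which imports leucine and other large neutral amino acids. SLC7A5 stood at 7.10, 6.45, 6.57 and 6.46 in vehicle replicates 1 to 4 and at 3.80, 4.51, 5.49 and 3.20 in doxycycline replicates 1 to 4. Every doxycycline tumour was below every vehicle tumour, with a wide spread among the treated ones, replicate 3 being the highest. The difference was -2.39 ± 0.41 (SE; limma adjusted p = 0.00407). The RefSeq table lists 2 pseudogenes, SLC7A5P1 and SLC7A5P2, whose RNA the probes could share.

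SLC7A6, a light chain that exchanges cationic for neutral amino acids, stood at 6.33, 7.04, 6.38 and 6.18 in vehicle and at 5.30, 5.71, 6.04 and 6.06 in doxycycline tumours. The groups did not overlap, but were only just apart, and at -0.71 ± 0.24 (SE) the difference missed the threshold (limma adjusted p = 0.0975). SLC7A11, the cystine importer xCT that feeds glutathione synthesis, stood at 6.59, 4.34, 4.87 and 5.87 in vehicle and at 4.48, 4.64, 4.12 and 4.26 in doxycycline tumours. The vehicle tumours were scattered over more than 2 log2 units, the doxycycline tumours were close together, and vehicle replicate 2 lay among them. At -1.04 ± 0.41 (SE) its difference missed the threshold (limma adjusted p = 0.149) and passed without vehicle replicate 2 (-1.40, adjusted p = 0.0362). It did not pass without vehicle replicate 2 together with doxycycline replicate 1 or 4 (adjusted p of 0.0548 and 0.0744), and was -0.65 without vehicle replicate 1 (adjusted p = 0.312). The other light chain genes, SLC7A7, SLC7A8, SLC7A9 and SLC7A10, had differences between -0.03 and 0.15.

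The heavy chains bring the light chains to the cell surface. SLC3A2, the heavy chain of LAT1 and xCT, stood at 8.92, 8.92, 8.53 and 9.08 in vehicle and at 8.48, 8.27, 8.80 and 8.28 in doxycycline tumours. Doxycycline replicate 3 lay inside the vehicle range and the other 3 just below it, and at -0.41 ± 0.19 (SE) the difference missed the threshold (limma adjusted p = 0.239). The difference between the responses of SLC7A5 and its heavy chain was not tested. SLC3A1, the heavy chain of the kidney and gut cystine carrier, stood at 1.94, 1.68, 1.58 and 1.96 in vehicle and at 1.70, 2.12, 1.48 and 2.07 in doxycycline tumours. The groups overlapped fully, at the dim end of the array, and differed by 0.05 ± 0.20 (SE; limma adjusted p = 0.914).

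Of the 4 genes grouped as cationic carriers, SLC7A1 (CAT1), which brings in arginine, lysine and ornithine, fell. It stood at 7.79, 7.58, 7.43 and 7.57 in vehicle and at 5.77, 6.94, 6.44 and 6.86 in doxycycline tumours. All treated tumours were lower, replicate 1 most of all. The difference was -1.09 ± 0.25 (SE; limma adjusted p = 0.0201), and the call was lost when vehicle replicate 1 (adjusted p = 0.0628) or doxycycline replicate 3 (0.0529) was left out. SLC7A2 (CAT2) split the treated tumours: it was at 3.94 to 4.26 in vehicle tumours, at 5.65 and 5.31 in doxycycline replicates 3 and 4, and at 4.06 and 3.40 in replicates 1 and 2. SLC7A3 and SLC7A14 differed by -0.05 and -0.07.

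**Figure D2:**
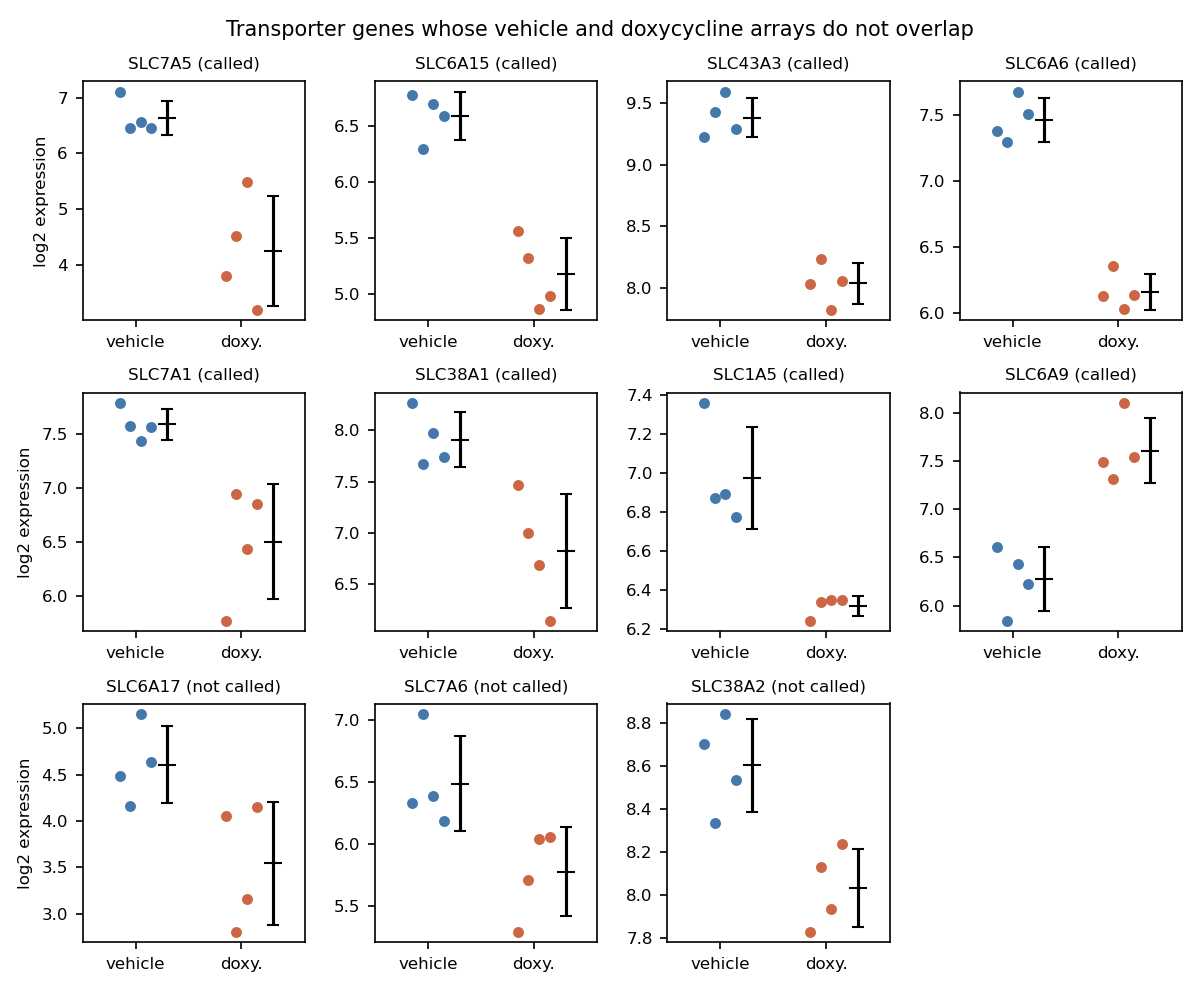
Log2 expression in each array for the 11 genes whose 4 vehicle and 4 doxycycline arrays do not overlap, with the group mean and SD as black bars; each panel has its own scale. The 8 genes that passed limma's test come first, with SLC7A5 spread from 3.20 to 5.49 in doxycycline tumours and SLC1A5 between 6.24 and 6.35, and 3 that did not pass follow.

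Of the glutamine carriers named in the background above, SLC38A1 and SLC1A5 fell and SLC38A2 did not pass. Their relatives SLC38A3 and SLC38A5 differed by 0.08 and -0.16 and did not pass (limma adjusted p of 0.897 and 0.819). SLC38A1 (SNAT1), a sodium-coupled carrier of glutamine and alanine, stood at 8.26, 7.67, 7.97 and 7.73 in vehicle and at 7.46, 6.998, 6.69 and 6.15 in doxycycline tumours. No treated tumour reached the vehicle range, although the gap between the groups was 0.20, and the difference was -1.08 ± 0.27 (SE; limma adjusted p = 0.0285). Its call held in 3 of the 8 fits that leave out 1 tumour and was lost without vehicle replicates 1 or 3 or doxycycline replicates 2, 3 or 4 (adjusted p up to 0.0869).

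SLC38A2 (SNAT2), the close relative of SLC38A1 that amino acid shortage is known to induce, stood at 8.70, 8.33, 8.84 and 8.53 in vehicle and at 7.83, 8.13, 7.93 and 8.23 in doxycycline tumours. The groups did not overlap, and at -0.57 ± 0.18 (SE) the difference missed the threshold (limma adjusted p = 0.0744). It passed without vehicle replicate 2 (adjusted p = 0.0493), the array with the lowest weight.

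SLC1A5 (ASCT2), the neutral amino acid exchanger that imports glutamine, fell least of the called genes. It stood at 7.36, 6.87, 6.89 and 6.77 in vehicle and at 6.24, 6.34, 6.35 and 6.35 in doxycycline tumours. The doxycycline tumours were nearly alike, and vehicle replicate 1 was higher than the other vehicle tumours. The difference was -0.65 ± 0.18 (SE; limma adjusted p = 0.0391), and it passed in 0 of the 8 fits that leave out 1 tumour (adjusted p of 0.0501 to 0.107).

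The other SLC1 genes did not pass. The glutamate carriers SLC1A1, SLC1A2 and SLC1A3 differed by -0.15, -0.11 and -0.31, and SLC1A4 (ASCT1), a carrier of serine and alanine, by 0.17. Among the remaining SLC38 genes, the lysosomal glutamine carrier SLC38A7 stood at 3.48, 2.98, 3.21 and 2.64 in vehicle and at 3.69, 3.47, 4.21 and 3.88 in doxycycline tumours. Doxycycline replicate 2 lay just inside the vehicle range, and at 0.74 ± 0.23 (SE) the difference missed the threshold (limma adjusted p = 0.0699). SLC38A9, the lysosomal carrier that signals arginine to mTORC1, differed by 0.03, and SLC38A10, SLC38A4, SLC38A6, SLC38A3 and SLC38A5 by 0.41, 0.52, 0.22, 0.08 and -0.16.

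The SLC6 family, sodium and chloride coupled carriers, held called genes in both directions. SLC6A15 (B0AT2), which carries branched-chain amino acids and proline, stood at 6.78, 6.30, 6.70 and 6.59 in vehicle and at 5.57, 5.32, 4.86 and 4.98 in doxycycline tumours. SLC6A6, the taurine carrier TauT, stood at 7.38, 7.29, 7.67 and 7.51 in vehicle and at 6.13, 6.35, 6.02 and 6.14 in doxycycline tumours. Both genes were lower in all treated tumours by gaps of 0.73 and 0.94 between the nearest arrays, wider than the range within either group. Their differences were -1.41 ± 0.21 and -1.30 ± 0.17 (SE; limma adjusted p of 0.00156 and 0.000708). For SLC6A6 the RefSeq table lists a pseudogene, SLC6A6P1, whose RNA the probes could share.

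SLC6A9 (GlyT1), the glycine carrier, went the other way. It stood at 6.61, 5.84, 6.43 and 6.22 in vehicle and at 7.49, 7.31, 8.10 and 7.54 in doxycycline tumours. All treated tumours were above all vehicle tumours, replicate 3 highest, and the difference was 1.34 ± 0.23 (SE; limma adjusted p = 0.00407). SLC6A17 (NTT4), a vesicular neutral amino acid carrier, stood at 4.49, 4.16, 5.15 and 4.64 in vehicle and at 4.06, 2.81, 3.16 and 4.15 in doxycycline tumours. The groups touched, with 4.15 and 4.16 at the border, and at -1.07 ± 0.33 (SE) the difference missed the threshold (limma adjusted p = 0.0655). It passed with doxycycline replicate 1 or 4 left out (adjusted p of 0.0484 and 0.0410) and without vehicle replicate 2 together with either (0.0397 and 0.0356). SLC6A14 averaged 1.33 in vehicle tumours and 1.65 in doxycycline tumours.

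SLC43A3 fell 2.54-fold. It is grouped with the amino acid carriers by sequence but is known as a carrier of purine nucleobases, so its fall does not describe amino acid transport. It stood at 9.23, 9.43, 9.59 and 9.29 in vehicle and at 8.03, 8.23, 7.83 and 8.06 in doxycycline tumours. The groups were 0.99 apart at their nearest arrays, and the difference of -1.34 ± 0.17 (SE) had the smallest adjusted p among the 41 genes (limma, 0.000651). Its relatives SLC43A1 and SLC43A2 (LAT3 and LAT4), which carry large neutral amino acids, differed by 0.24 and 0.81 and did not pass (limma adjusted p of 0.747 and 0.141). SLC43A2 stood at 5.07, 6.08, 5.09 and 5.91 in vehicle and at 5.86, 6.17, 7.08 and 6.27 in doxycycline tumours, with only doxycycline replicate 1 inside the vehicle range.

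The remaining roles had no called gene. The lysosomal and plasma membrane proton-coupled carriers SLC36A1 and SLC36A4 differed by 0.23 and 0.19, and the aromatic amino acid carrier SLC16A10 by 0.03. Of the mitochondrial carriers, the aspartate-glutamate exchangers SLC25A12 and SLC25A13 differed by -0.18 and -0.45 and the glutamate carrier SLC25A22 by -0.10. Of these 3, 0 passed limma's test, and 1 had an unadjusted p under 0.05, as did 4172 of all 17492 genes. In all, 9 of the 41 genes averaged below the lower quartile of every array, and 0 of those 9 passed. How far each row lay above background is unknown, so a change in these dim genes could go unseen.

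**Figure D3:**
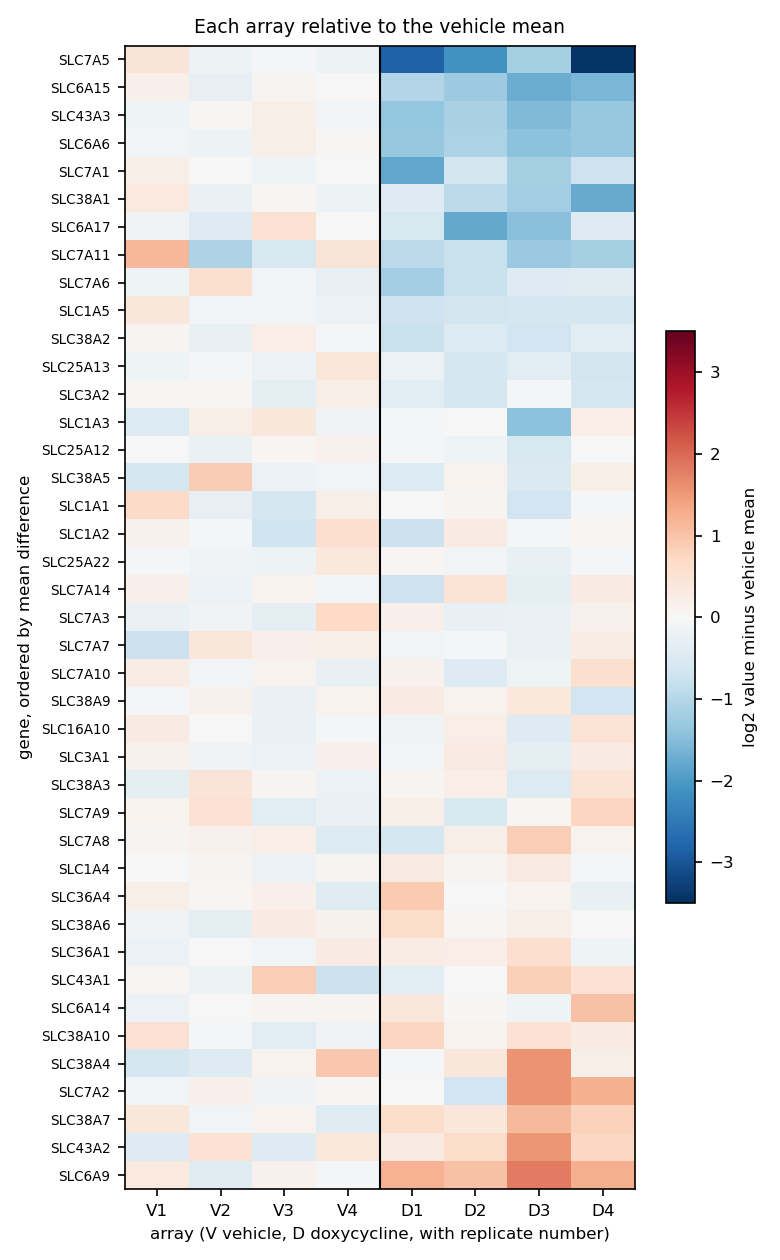
Each of the 41 genes (rows, ordered by mean difference) in each array (columns), as the log2 value minus the mean of the 4 vehicle arrays. The falls at the top and the rise of SLC6A9 at the bottom run through all 4 doxycycline arrays, and SLC7A2 is high in doxycycline replicates 3 and 4 only.

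The members also differed in how evenly the tumours of a group behaved. The SD within the vehicle group had a median of 0.292 over the 41 genes, from 0.146 (SLC7A1) to 1.01 (SLC7A11). In the doxycycline group it had a median of 0.358, from 0.0505 (SLC1A5) to 1.05 (SLC7A2), with SLC7A5 at 0.98. SLC43A3, SLC6A6, SLC6A15, SLC7A5 and SLC6A9 kept their calls in all 8 fits that leave out 1 tumour, with log2 differences of -1.41 to -1.27, -1.37 to -1.23, -1.53 to -1.30, -2.81 to -2.04 and 1.17 to 1.45. The number of genes that fell was between 4 (without vehicle replicate 1 or doxycycline replicate 3) and 8 (without vehicle replicate 2), and 1 gene rose in each of those fits. Among all genes, 754 fell without vehicle replicate 1, 843 without doxycycline replicate 3 and 1057 without vehicle replicate 2. With all 8 arrays 1054 fell.

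**Figure D4:**
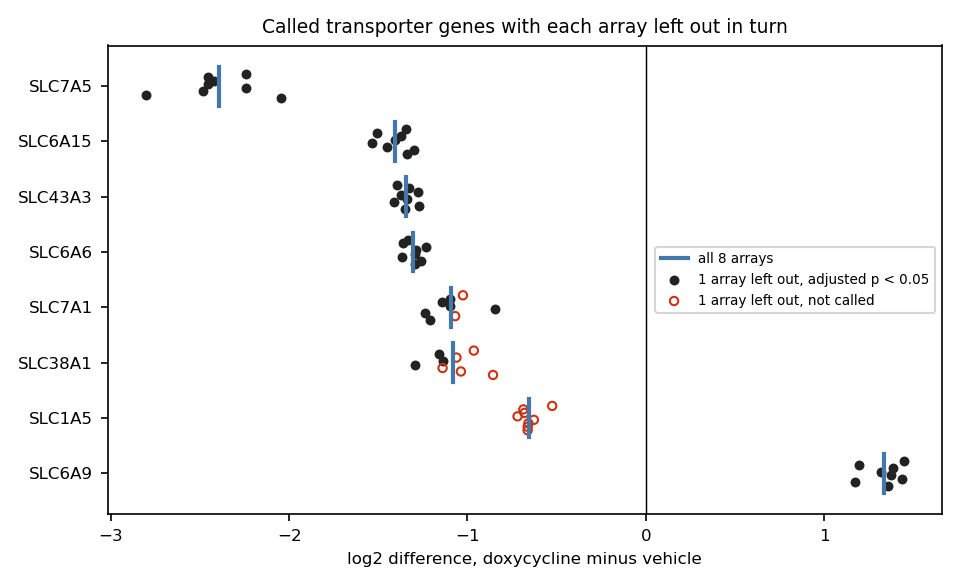
Log2 difference of the 8 called genes with all 8 arrays (blue line) and with each array left out in turn (points; open red circles did not pass limma's test). SLC1A5 has 8 open circles, SLC38A1 5 and SLC7A1 2, and the other 5 genes have none.

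Scaling affects the split between directions. With each array centred on 40 ribosomal protein genes, which themselves had a median difference of -0.26, the median over all genes was 0.28 instead of 0.04, and 677 genes fell and 1753 rose, against 1054 and 830 as deposited. Of the transporters, 5 fell and 2 rose on that scale: SLC1A5 (-0.41) and SLC38A1 (-0.84) were no longer called and SLC38A7 (0.98) was (limma adjusted p of 0.173, 0.0739 and 0.0232). SLC7A5, SLC6A15, SLC43A3, SLC6A6, SLC7A1 and SLC6A9 passed in the same direction under every scaling tried.

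Other genes of the pathway were read from lists outside the 41. Of 28 further amino acid carrier genes, 2 fell and 0 rose by limma (8 had an unadjusted p under 0.05 in either direction), with a median difference of 0.08. Among all genes, 4172 of 17492 had an unadjusted p under 0.05 with all 8 arrays as deposited. The unadjusted counts of this list and of the lists below are to be read against that share. The 2 falls are 7.14% of the list, near the 6.03% of all genes that fell. Those that fell were the mitochondrial serine carriers of the sideroflexin family, SFXN1 (-1.17 ± 0.20, SE) and SFXN3 (-0.75 ± 0.20, SE), with limma adjusted p of 0.00371 and 0.0324. SFXN1 stood at 8.10, 7.74, 7.41 and 7.72 in vehicle and at 6.88, 6.52, 6.37 and 6.49 in doxycycline tumours, all lower. SLC25A38, the mitochondrial glycine carrier, and the lysosomal carrier SLC17A5 differed by 0.59 and 0.61 and did not pass (limma adjusted p of 0.0564 and 0.0932).

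Of 31 measured genes of amino acid sensing upstream of mTORC1, 3 rose and 1 fell (7 had an unadjusted p under 0.05), with a median difference of 0.25. The 4 called genes are 12.9% of the list, against 10.8% of all genes called. The 3 rises are 9.68% of the list, against 4.75% of all genes, and the 1 fall is 3.23%, against 6.03%. All 4 doxycycline tumours lay above all 4 vehicle tumours for 8 of the 31 genes, against 8.86% of all genes. They lay below for 1 of the 31, against 8.83%. Of the 31 differences 25 were above 0, as were 9489 of 17492 over all genes. SESN1, one of the sestrins, inhibitors of mTORC1 of which SESN2 is the leucine sensor, rose by 1.16 ± 0.24 (SE; limma adjusted p = 0.0114). It stood at 4.46 to 4.97 in vehicle and at 5.42 to 6.43 in doxycycline tumours, all higher. KICS2, a part of the KICSTOR scaffold, and SAMTOR, the sensor of S-adenosylmethionine, rose by 0.90 ± 0.18 and 0.74 ± 0.20 (SE; limma adjusted p of 0.0103 and 0.0379). As background, these 3 genes are known to hold mTORC1 back when nutrients are short. The activity of mTORC1 was not measured here. SEH1L, shared by the GATOR2 complex and the nuclear pore, fell by 1.43 ± 0.21 (SE; limma adjusted p = 0.00162). The Rag GTPase gene RRAGC (0.54 ± 0.18, SE) and the mTOR subunit gene MLST8 (-0.48 ± 0.18, SE) did not pass (limma adjusted p of 0.0911 and 0.136).

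Of 12 measured genes of the amino acid response, 2 fell and 0 rose by limma (7 had an unadjusted p under 0.05 in either direction), with a median difference of -0.45. The 2 falls are 16.7% of the list, against 6.03% of all genes. The genes that fell were CEBPG, a partner of ATF4 (-0.96 ± 0.21, SE), and DDIT4, a stress-induced inhibitor of mTORC1 (-0.83 ± 0.23, SE), with limma adjusted p of 0.0139 and 0.0456. ATF4 itself differed by -0.28 ± 0.19 (SE), and CEBPB and the asparagine synthetase gene ASNS by -0.71 ± 0.23 and -0.62 ± 0.23 (SE), and all 3 missed the threshold (limma adjusted p of 0.405, 0.0788 and 0.128). With 1 tumour left out, 1 to 3 genes of the list were called.

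A list of genes around cystine, glutathione and thioredoxin held 7 measured genes, not all of them steps from cystine to glutathione. Of these 7, 3 fell and 0 rose by limma (4 had an unadjusted p under 0.05), with a median difference of -0.64. The 3 falls are 42.9% of this short list, against 6.03% of all genes. GCLC, the catalytic subunit of the rate-limiting enzyme of glutathione synthesis, stood at 5.35, 3.74, 5.97 and 5.58 in vehicle and at 3.04, 3.14, 3.41 and 4.31 in doxycycline tumours. Vehicle replicate 2 lay inside the treated range, as it did for the cystine importer SLC7A11, and the difference was -1.69 ± 0.45 (SE; limma adjusted p = 0.0364). GGCT and TXNRD1 (thioredoxin reductase) fell by 0.80 ± 0.19 and by 0.73 ± 0.18 (SE; limma adjusted p of 0.0216 and 0.0253). The regulatory subunit GCLM (-0.64 ± 0.26, SE) and glutathione synthetase, GSS (-0.42 ± 0.20, SE), did not pass (limma adjusted p of 0.161 and 0.230). CTH (0.51 ± 0.28, SE) and CD44 (-0.12 ± 0.31, SE) did not pass either (limma adjusted p of 0.315 and 0.875). Without vehicle replicate 1, and without doxycycline replicate 3, 0 of the 7 passed (4 had an unadjusted p under 0.05 in each).

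**Figure D5:**
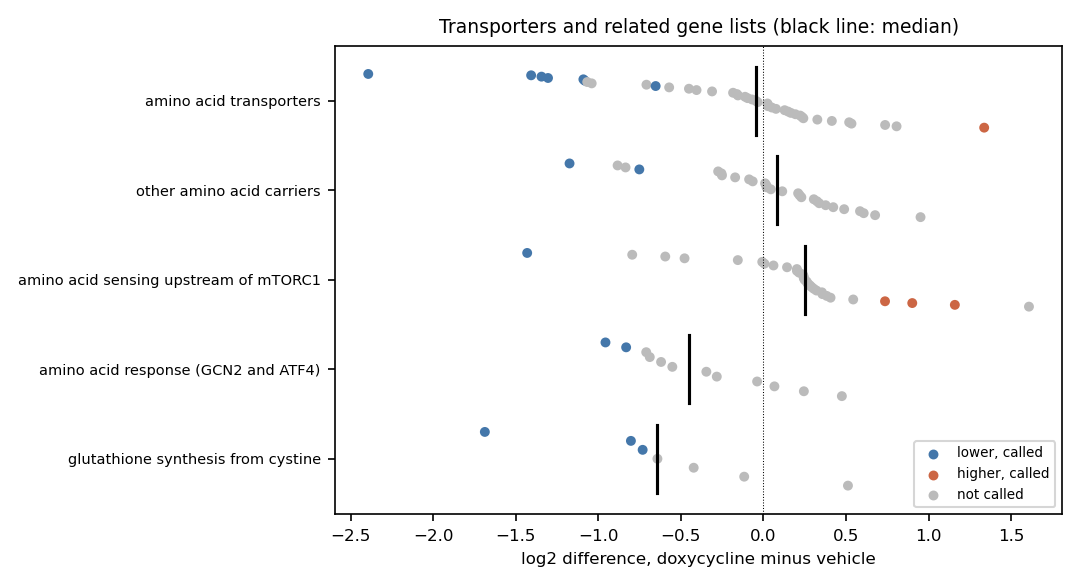
Log2 difference, doxycycline minus vehicle, of each gene of the 41 transporters and of the 4 related lists, with the list median as a black line and genes that passed limma's test in colour. The medians were -0.05, 0.08, 0.25, -0.45 and -0.64 from top to bottom.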

How the data were processed

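Total RNA of 8 tumours was hybridised to 1 Affymetrix array each, and the deposited log2 intensities are RMA values, per the submitters' processing notes. Software version, probe definition and filters: not given in the sources used here. Quantile normalization within RMA partly removes a shift of most transcripts in 1 direction.

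Of 18569 rows, 17511 carry 1 gene symbol, 0 carry several, and 1058 carry none and were left out. For 17 genes with several rows the row with the highest mean was kept, which left 17492 genes, and no dim genes were removed. No columns of other samples were present. Doxycycline was compared with vehicle by limma 3.58.1 in R 4.3.3 (lmFit and eBayes, two-sided, Benjamini-Hochberg over all genes, threshold 0.05), without a block. Each difference subtracts vehicle from doxycycline, with the moderated standard error of limma as SE. The titles of the samples gave groups and replicate numbers. Deviations of same-numbered arrays from their group means correlated at -0.157 to 0.0345, so the numbers were not taken to pair the tumours.

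The members and lists were chosen with earlier results of these data known. Per-array values are given for called members, the heavy chains, uncalled members whose groups do not overlap, and the 3 others with the largest differences (SLC7A11, SLC43A2 and SLC38A7), and, chosen after their values were seen, for SLC7A2 and for SFXN1 and GCLC of the related lists. From each related list the called genes and those with the smallest p among the rest are named, and ATF4, CTH and CD44 were added after their values were seen. Promoter windows come from RefSeq's GRCh38.p14 table. The window sequences of 3 uncalled genes were added to those of called genes for comparison. The alternatives were quantile normalization, centring on the median or on ribosomal protein genes, array weights, a filter on the dimmest 40% of genes, the replicate block, a prior both trended and robust, the mean of a gene's rows, and each array left out. Leaving out vehicle replicate 2 with doxycycline replicate 1 or 4 was added after seeing the data. The fit was tested on simulated data for this comparison over 17492 genes, 200 of them changed. For a log2 change of 1 it found 35% of the changed genes and for a log2 change of 2 it found 93%, with 0 in the wrong direction and 10 false calls. In the data 1884 genes were called, and the adjusted threshold depends on how many genes change. The simulated shares are therefore not the shares found in the data.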

Additional observations from a re-analysis of the deposited data

Results flagged for a closer look

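In 1 of 82 sets of 4 tumours examined (41 genes in 2 groups, 1.22%), 1 tumour lay far from the others by Dixon's criterion at the 95% level, which chance meets in about 1 in 20. SLC1A5 was at 6.24 in doxycycline replicate 1, against 6.34 to 6.35 in the other doxycycline tumours. The SD of the 4 doxycycline tumours was 0.0505, the smallest of the 41 genes in that group.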

How the results depend on the processing

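Of the 8 called transporter genes, 0 changed sign under any alternative, and 19 of the 33 uncalled genes changed sign in at least 1. The number that fell was 7 as deposited and 5 to 9 under the alternatives that keep all arrays. Among all genes that number was 1054 as deposited and ran from 677 (ribosomal centring) to 1221 (array weights). SLC38A2 was added by quantile normalization, the trended prior, array weights and the filter on dim genes, and SLC6A17 with array weights. With the replicate block 6 fell and 1 rose: SLC1A5 lost its call (limma adjusted p = 0.112). Among all genes 791 fell and 502 rose with that block. With 1 array left out, 4 to 8 fell and 1 rose, and 1 to 2 further carriers, 3 to 4 sensing genes, 1 to 3 response genes and 0 to 2 glutathione genes were called. In those fits 748 to 1057 of all genes fell and 503 to 727 rose. With arrays centred on ribosomal protein genes, 2 transporters rose, and 4 further carriers, 0 response genes (3 at an unadjusted p under 0.05, limma) and 1 glutathione gene were called. Centring on medians left 1 response gene, and the replicate block left 1 response gene and 1 glutathione gene. Without vehicle replicate 2 and doxycycline replicate 1 together, 1 response gene was called. Without vehicle replicate 2 and doxycycline replicate 4 together, 2 sensing genes and 1 glutathione gene were. In each of these pairs left out, 7 transporters fell and 1 rose, but the 7 were not those of the fit with all arrays. SLC1A5 lost its call and SLC6A17 gained one in both. Without vehicle replicate 2 and doxycycline replicate 4, SLC38A1 was also lost and SLC38A2 gained (limma adjusted p of 0.0557 and 0.0496). Among all genes, 1033 fell with doxycycline replicate 1 left out of the pair's fit and 901 with replicate 4 left out. The causes of these changes were not tested. Signal over background is unknown here, which limits what can be said of dim genes.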

Other observations

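Some uncalled transporter genes varied more between tumours of a group than between the groups. SLC1A3, the glial glutamate carrier, was at 4.87 in doxycycline replicate 3 and at 6.22 to 6.54 in the other doxycycline tumours, against 5.82 to 6.69 in vehicle tumours. The same tumour had the highest doxycycline values of SLC43A2 (7.08), SLC38A4 (3.41), SLC7A8 (4.04) and SLC43A1 (4.54), and also of the called genes SLC6A9 (8.10) and SLC7A5 (5.49). Doxycycline replicate 4 had the highest doxycycline values of SLC6A14 (2.34) and SLC7A10 (4.46), among other genes. It had the lowest doxycycline values of SLC38A1 (6.15) and SLC7A5 (3.20). These values were picked out after they were seen, and no test was made of them.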
